A study of Mus musculus with 8 samples.

Results

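Chemokine ligand genes that T cells can transcribe were followed in activated mouse T cells kept with or without human beta-defensin-2 (hBD-2), an antimicrobial peptide of epithelia. The 10 genes were taken by symbol from the platform annotation: Ccl1, Ccl3, Ccl4, Ccl5, Ccl9, Ccl17, Ccl20, Ccl22, Cxcl10 and Xcl1. All 10 were found, each with 1 probe set, among 19505 named genes. The samples were 8 one-colour Affymetrix arrays of splenic T cells, CD4 and CD8 together, from male wild-type C57BL/6 mice, isolated with a pan T cell kit. Every sample received microbeads with antibodies against CD3 and CD28 for 48 h, which mimic antigen and co-stimulation. In the PBS group (4 arrays) only the vehicle was added, and in the hBD-2 group (4 arrays) the peptide was added at 60 µL/mL, a volume whose mass content the labels do not give. The labels name 4 mice for the 8 arrays without saying which array came from which mouse, so the p-values measure the spread between these samples only. No group is without stimulation, so the comparison is between 2 stimulated states.

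Chemokines are small secreted proteins that steer cells by binding G protein-coupled receptors. They are sorted by their first cysteines into CC (Ccl), CXC (Cxcl) and C (Xcl) types. Activated CD8 and Th1 cells are known for Ccl3, Ccl4, Ccl5 and Xcl1, which call in monocytes, T cells and dendritic cells. Cxcl10 is an interferon-inducible ligand of CXCR3. Ccl17 and Ccl22 bind CCR4, Ccl1 binds CCR8 and Ccl20 binds CCR6, a receptor to which beta-defensins have also been reported to bind.

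Expression is given as deposited log2 values from robust multi-array average (RMA), as mean ± SD (n = 4 arrays in each group), and differences are hBD-2 minus PBS on the log2 scale. Levels of different genes come from different probes, so which of 2 genes is higher cannot be read from them, and differences between genes are used only for how they change between the groups. A gene was called at an adjusted p under 0.05 in the limma fit over all 19505 genes. Of the 10 ligands, 2 fell with hBD-2, Ccl3 and Ccl5, none rose and 8 did not pass. Over all genes, 3.66% were called lower and 0.8% higher (4.46% in either direction). At an unadjusted limma p under 0.05, 3 ligands were lower and 4 higher, where 12.8% and 9.44% of all genes were. Of the 10 differences, 4 lay below 0 and 6 above. Their median difference was 0.07, and that of all genes was 0.02. Arrays of the groups did not overlap for 3 ligands, below PBS for Ccl3 and Ccl5 (9.36% of all genes lay so) and above it for Ccl17 (5.51%, with 14.9% of genes on either side).

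**Figure D1:**
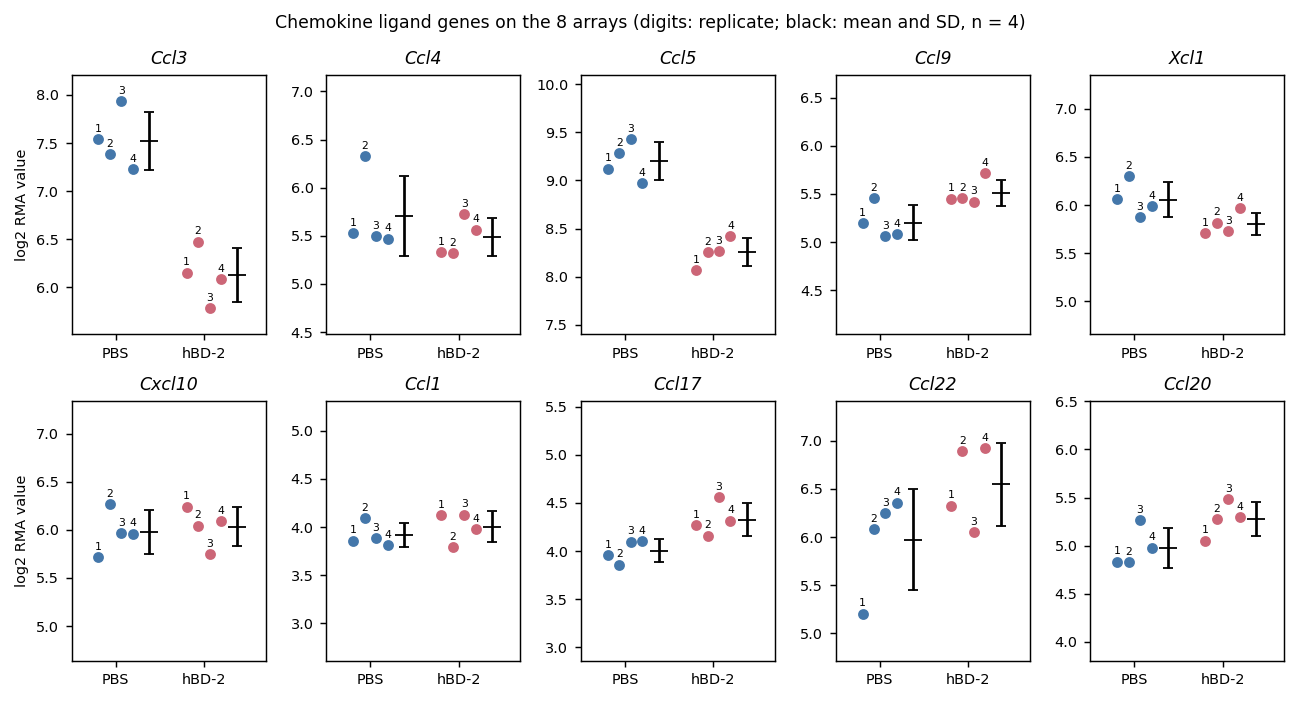
Log2 RMA values of the 10 ligands on each array (points, digits give the replicate), with mean and SD of 4 arrays in black; every panel spans the same height in log2 units, with its own zero point. The groups stand apart by 0.75 for Ccl3 and 0.55 for Ccl5, while Ccl4 is set apart by 1 PBS array at 6.33.

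The arrays carried T cell transcripts at high levels, and the arrays were close to each other. The 9 measured T cell markers averaged 10.43 to 10.53 over the 8 arrays, and Cd4 and Cd8a were both present (9.77 ± 0.10 and 10.71 ± 0.04 in PBS). Pearson correlations across genes lay between 0.983 and 0.994 for all pairs of arrays. The upper quartile of values was 7.33 to 7.38 on PBS arrays and 7.23 to 7.32 with hBD-2, without overlap (two-sided exact permutation p = 0.0286). With quantile normalization repeated, 506 genes were called lower and 234 higher, in place of 713 and 156. The interquartile range of values was 3.64 to 3.76 on PBS arrays and 3.45 to 3.64 with hBD-2 (p = 0.0571 in a two-sided exact permutation test), narrowest on hBD-2 replicates 3 and 4. Without these 2 arrays the differences of Ccl3 and Ccl5 were -1.21 and -1.04 (limma adjusted p = 0.0316 and 0.0182). In these bulk samples, fewer producing cells and less RNA per cell cannot be told apart.

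Sequence just upstream of the start site is shown for 3 of the 10 genes. These were Ccl3, which had the largest fall, Cxcl10, whose difference lay closest to 0, and Ccl20, the ligand of the receptor reported for defensins. RefSeq promoters of the build GRCm38.p6 were at hand for 8 of the 10 genes, all but Ccl4 and Ccl5. Each line holds the 250 bases before the start site, 5′ to 3′ on the gene's own strand. Capitals mark matches on either strand to 4 motifs: AP-1 (TGANTCA), an NF-kB-type site (GGNNNTTCC), an interferon response core (GAAA repeated after a gap of 2 bases) and the NFAT core (TGGAAA), the last 2 overlapping in Cxcl10.
Ccl3, chr11:83649379-83649628, minus strand: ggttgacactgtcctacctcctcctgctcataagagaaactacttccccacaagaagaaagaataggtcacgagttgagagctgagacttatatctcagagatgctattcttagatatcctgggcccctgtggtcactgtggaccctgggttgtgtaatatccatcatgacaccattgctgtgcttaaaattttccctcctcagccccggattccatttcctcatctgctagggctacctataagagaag
Cxcl10, chr5:92348890-92349139, minus strand: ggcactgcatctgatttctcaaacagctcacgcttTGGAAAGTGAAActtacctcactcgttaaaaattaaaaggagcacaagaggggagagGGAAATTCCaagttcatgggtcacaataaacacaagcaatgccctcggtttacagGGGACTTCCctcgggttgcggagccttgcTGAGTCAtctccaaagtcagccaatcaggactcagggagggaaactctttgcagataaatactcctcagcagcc
Ccl20, chr1:83116516-83116765, plus strand: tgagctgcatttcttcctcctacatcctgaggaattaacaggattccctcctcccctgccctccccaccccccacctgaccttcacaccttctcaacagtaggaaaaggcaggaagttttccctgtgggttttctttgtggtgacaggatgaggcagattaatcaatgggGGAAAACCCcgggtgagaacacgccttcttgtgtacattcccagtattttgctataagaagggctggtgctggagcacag
Cxcl10 held all 4 motifs: the interferon response core at -213 to -204 from the start site, the NFAT core at -215 to -210, NF-kB-type matches at -158 to -150 and -103 to -95, and AP-1 at -74 to -68. Ccl20 held 1 NF-kB-type match, at -80 to -72. No match to these letters lay in the Ccl3 window, nor in those of Ccl22 and Xcl1. Of the windows not shown, Ccl9 held AP-1, NF-kB-type and NFAT core matches. Ccl1 held NF-kB-type and NFAT core matches, and Ccl17 held an NFAT core. Over 32851 promoter windows of the same length, 6.75% held AP-1, 15.7% the NF-kB-type site, 2.98% the interferon core and 18.6% the NFAT core. These matches describe the sequence and were not measured as binding sites.

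Among the inflammatory CC ligands Ccl3, Ccl5 and Ccl4, the first pair were lower and Ccl4 was not past the threshold. Ccl3, also known as MIP-1 alpha, attracts monocytes, NK cells and T cells. Its values were 7.54, 7.39, 7.94 and 7.23 on PBS replicates 1 to 4 and 6.15, 6.48, 5.79 and 6.09 on hBD-2 replicates 1 to 4. Every hBD-2 array lay below every PBS array, with 0.75 between the closest arrays of the groups. Ccl3 fell 2.63-fold, by a log2 difference of -1.40 (SE 0.17, 95% interval -1.77 to -1.03, limma adjusted p = 0.00122). In the order of log2 differences it was number 21 of 19505 from the lowest.

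Ccl5, or RANTES, is held ready in memory and effector T cells and attracts T cells and monocytes. It stood at 9.12, 9.28, 9.43 and 8.97 on the PBS arrays and at 8.07, 8.25, 8.27 and 8.42 on the hBD-2 arrays. The groups were again apart, by 0.55, with less spread within each than for Ccl3. The fall was 1.93-fold, a log2 difference of -0.95 (SE 0.12, 95% interval -1.21 to -0.69, limma adjusted p = 0.00161). Ccl5 was number 87 from the lowest.

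Ccl4, or MIP-1 beta, is the closest relative of Ccl3 in function and its neighbour on chromosome 11, and the reference entries of the 2 genes overlap. It read 5.53, 6.33, 5.50 and 5.47 with PBS and 5.33, 5.32, 5.73 and 5.57 with hBD-2. PBS replicate 2 was far above the other 3 PBS arrays, hBD-2 replicates 3 and 4 also lay above those 3, and the groups overlapped. The difference was -0.22 (SE 0.18, 95% interval -0.62 to 0.18, limma adjusted p = 0.517), and -0.01 without PBS replicate 2 (limma adjusted p = 0.965).

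Whether these 3 ligands differed from each other in their response was tested within arrays, as 3 of 4 pairs compared in this way and adjusted together. The pairs were picked with the results known. Ccl3 minus Ccl4 went from 1.82 ± 0.58 in PBS to 0.64 ± 0.46 in hBD-2, a change of -1.18 (exact permutation test, two-sided, p = 0.0571, adjusted p = 0.0571, n = 4). Ccl3 minus Ccl5 changed by -0.45 (exact permutation p = 0.0571, adjusted p = 0.0571). Ccl4 minus Ccl5 changed by 0.73, from -3.50 ± 0.40 to -2.77 ± 0.17, with no overlap of the groups (exact permutation p = 0.0286, adjusted p = 0.0571). The smallest p that 4 arrays against 4 can give is 0.0286, and none of these pairs passed after adjustment.

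Ccl9, a CCR1 ligand made mainly by myeloid cells, and Xcl1, lymphotactin, which draws XCR1-bearing dendritic cells, moved in opposite directions without passing. Ccl9 was at 5.20, 5.45, 5.06 and 5.09 with PBS and at 5.45, 5.46, 5.42 and 5.72 with hBD-2. The groups overlapped only through PBS replicate 2, at 5.45. The difference of Ccl9 was 0.31 (SE 0.11, 95% interval 0.06 to 0.56, limma adjusted p = 0.139). Xcl1 was at 6.07, 6.30, 5.88 and 5.99 with PBS and at 5.71, 5.82, 5.73 and 5.97 with hBD-2. Here hBD-2 replicate 4 reached into the PBS range, and the other 3 hBD-2 arrays lay below it. The difference of Xcl1 was -0.25 (SE 0.11, 95% interval -0.49 to -0.01, limma adjusted p = 0.209).

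Cxcl10, or IP-10, is induced by interferon gamma and attracts CXCR3-bearing T cells. Its values were 5.71, 6.27, 5.97 and 5.96 in PBS and 6.24, 6.04, 5.75 and 6.09 in hBD-2, and all hBD-2 arrays lay within the PBS range. The difference was 0.05 (SE 0.14, 95% interval -0.24 to 0.35, limma adjusted p = 0.851), and it was below 0 when either PBS replicate 1 or hBD-2 replicate 1 was left out. Ifng, the gene of interferon gamma, fell on the same arrays, from 6.80 ± 0.26 to 5.33 ± 0.42 (log2 difference -1.48, limma adjusted p = 0.00204). Within arrays, Ifng minus Cxcl10 went from 0.83 ± 0.33 to -0.70 ± 0.31, with no overlap of the groups (exact permutation test, two-sided, p = 0.0286, adjusted p = 0.0571 over the 4 pairs, n = 4). This pair was likewise picked with the results known, and it did not pass after adjustment. Its change of -1.53 was mostly the fall of Ifng itself.

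The rest of the list of interferon gamma signalling genes, which relay the cytokine to genes such as Cxcl10, held no call. Of its 10 measured members, Ifng alone was called, 9 did not pass, and the median difference was 0.08. The transcription factor genes Irf1 and Irf8 were at 0.30 and -0.39 (limma adjusted p = 0.0649 for both), and the kinase gene Jak2 was at 0.27 (limma adjusted p = 0.0821). With quantile normalization repeated, cyclic loess or the level trend removed, 3 members were called in place of 1, and 4 with a variance trend or without dim genes. The other interferon-inducible CXCR3 ligands, Cxcl9 and Cxcl11, had differences of -0.27 and 0.15 (limma adjusted p = 0.191 and 0.604), and both lay under the percentile 40 of mean level.

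**Figure D2:**
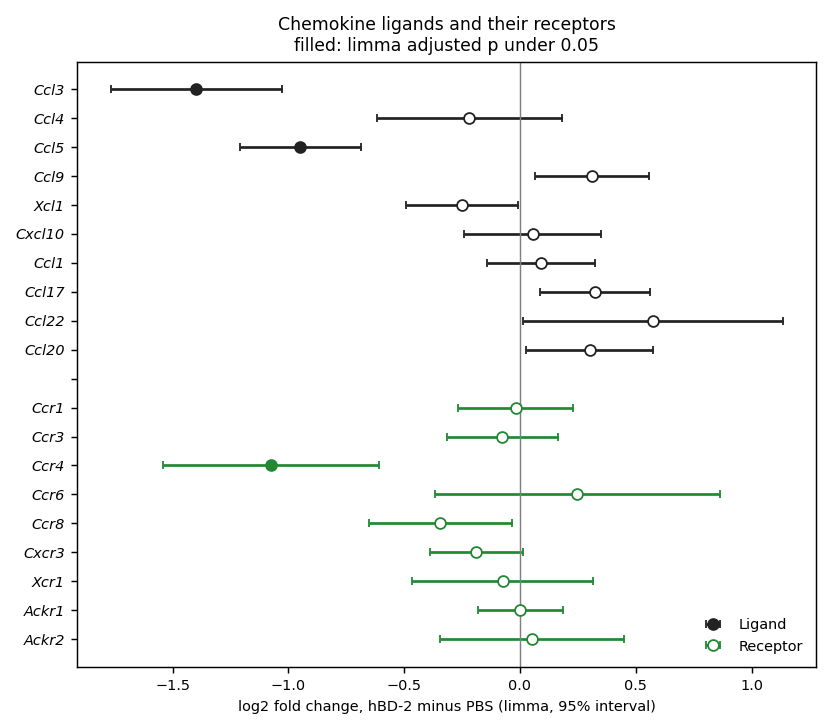
Log2 differences (hBD-2 minus PBS, limma estimate and 95% interval) of the 10 ligands (black) and the 9 measured receptors (green); filled points have a limma adjusted p under 0.05. Ccl3 (-1.40), Ccl5 (-0.95) and Ccr4 (-1.08) are the filled points, and the unadjusted intervals of Ccl9, Ccl17, Ccl20 and Ccl22 lie above 0 and those of Xcl1 and Ccr8 below it.

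The ligands of CCR4 and CCR8, receptors of Th2, regulatory and skin-homing T cells, had differences above 0, and none passed. Ccl22, or MDC, showed the widest spread of all 10 ligands. It read 5.21, 6.08, 6.25 and 6.36 with PBS and 6.33, 6.89, 6.05 and 6.92 with hBD-2. PBS replicate 1 was the lowest array, and hBD-2 replicates 1 and 3 lay inside the PBS range. The difference was 0.57 (SE 0.26, 95% interval 0.01 to 1.13, limma adjusted p = 0.214), and 0.32 without PBS replicate 1 (limma adjusted p = 0.442).

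Ccl17, or TARC, was at 3.96, 3.86, 4.10 and 4.10 with PBS and at 4.27, 4.16, 4.56 and 4.32 with hBD-2. All 4 hBD-2 arrays lay above all 4 PBS arrays, by 0.06 at the closest. The difference of 0.32 (SE 0.11, 95% interval 0.08 to 0.56) was not past the threshold (limma adjusted p = 0.114). It shrank to 0.24 under each of the 3 repeated normalizations. Ccl1 was at 3.86, 4.09, 3.89 and 3.82 with PBS and at 4.12, 3.79, 4.13 and 3.98 with hBD-2, with mixed groups and a difference of 0.09 (95% interval -0.14 to 0.33, limma adjusted p = 0.662), which was 0.01 under each of the same normalizations. Both genes lay under the percentile 40 of mean level over all genes (a log2 value of 4.74), at percentiles 31.7 and 28.3, where RMA compresses changes.

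Ccl20, which draws CCR6-bearing Th17, B and dendritic cells, was at 4.83, 4.83, 5.27 and 4.98 with PBS and at 5.05, 5.28, 5.48 and 5.30 with hBD-2. PBS replicate 3 reached into the hBD-2 range, and the other 3 PBS arrays lay below it. The difference was 0.30 (SE 0.12, 95% interval 0.03 to 0.57, limma adjusted p = 0.186).

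Markers of other spleen cells that can make these chemokines were read on the same arrays. The mean of 8 mast cell and basophil markers was 4.74 to 4.85 on PBS arrays and 4.95 to 5.35 with hBD-2, without overlap (two-sided exact permutation p = 0.0286). Of the 8, 2 rose, Cpa3 and Fcer1a (limma adjusted p = 0.0132 and 0.0323), where 0.8% of all genes were called higher. At an unadjusted limma p under 0.05, 4 of the 8 were higher and 1 was lower. The mean of 5 natural killer cell markers was 5.26 to 5.51 and 4.97 to 5.35 (exact permutation p = 0.0857). Their differences were -0.63 for Klre1, -0.40 for Klrk1, -0.23 for Eomes, -0.08 for Ncr1 and 0.05 for Klrb1c, with Ncr1 and Klrb1c, which define these cells, at 2.97 and 2.96 in PBS and at percentiles 9.17 and 10.0 of mean level. For 10 dendritic cell markers the means were 4.21 to 4.35 and 4.28 to 4.49 (exact permutation p = 0.257), and for 10 macrophage and monocyte markers 3.76 to 3.94 and 3.80 to 4.12 (exact permutation p = 0.200). None of these dendritic, macrophage or natural killer markers was called by limma over all genes. At an unadjusted p under 0.05 there were 1 dendritic and 2 macrophage markers higher and 2 natural killer markers lower, against 12.8% of all genes lower and 9.44% higher. The 2 natural killer markers were Klre1 and Klrk1 (limma adjusted p = 0.0900 and 0.0797).

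B cell markers varied between arrays more than between groups. The mean of the 7 measured B cell markers was 4.45, 5.16, 4.49 and 5.31 on PBS replicates 1 to 4 and 4.60, 5.82, 4.44 and 5.90 on hBD-2 replicates 1 to 4 (two-sided exact permutation p = 0.514). In both groups replicates 2 and 4 were high and replicates 1 and 3 low. On the hBD-2 arrays Ccl22 was likewise highest on replicates 2 and 4, and on the PBS arrays it was highest on replicates 4 and 3. The part of any of these cell types in the ligand values was not tested.

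The ligands varied together on some arrays within the groups. PBS replicate 2 was the highest PBS array for 5 of the 10 ligands, Ccl1, Ccl4, Ccl9, Cxcl10 and Xcl1, and the lowest for 2. In deviations from the group means over the 8 arrays, Ccl9 and Xcl1 were the most alike pair (r = 0.960), followed by Ccl4 with Ccl9 (0.725) and with Xcl1 (0.718). Ccl3 and Ccl5 had an r of 0.436. Among 11279 genes at or above the percentile 40, without predicted genes, small RNAs, antigen receptor segments and olfactory receptors, those most like Ccl3 in these deviations were Pias4, Shc1 and Nptx1 (r = 0.959, 0.958 and 0.946). For Ccl5 they were Gpr27, Sprr2i and Pcdhb8 (0.959, 0.958 and 0.957). Such values over 8 arrays describe these arrays only, since the points share the arrays and their normalization.

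**Figure D3:**
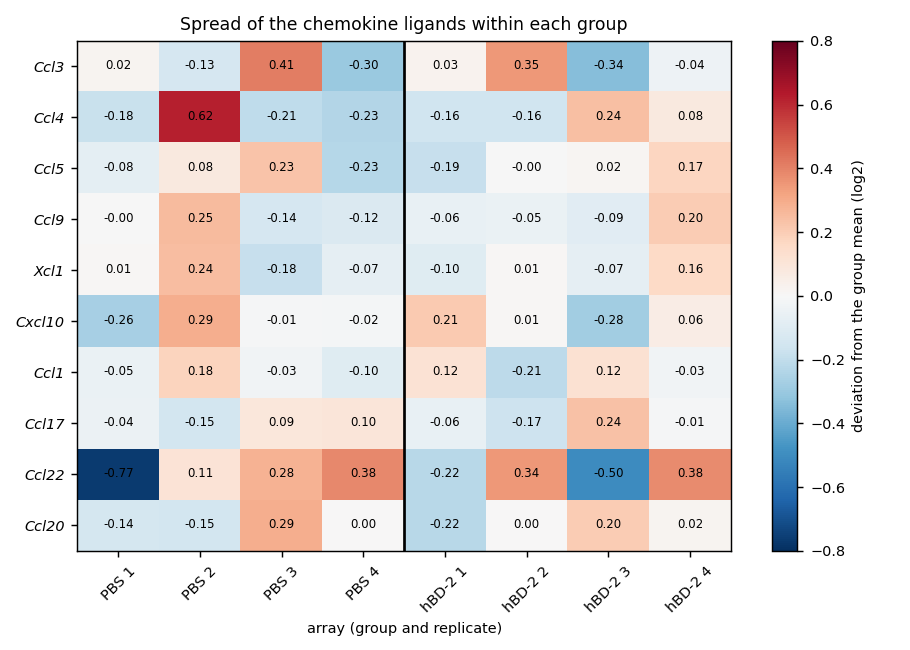
Deviation of each ligand from its group mean (log2 units, colour and number) on each of the 8 arrays. PBS replicate 2 carries the largest positive value, 0.62 for Ccl4, and PBS replicate 1 the largest negative one, -0.77 for Ccl22.

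Of the receptors through which these ligands act, Ccr4 fell, and the other 8 measured did not pass. Ccr4, the receptor of Ccl17 and Ccl22, was at 5.45, 4.94, 4.67 and 4.82 with PBS and at 4.19, 4.03, 4.10 and 3.25 with hBD-2, so that the groups were apart. Its mean level was at percentile 35.4, so the filter on dim genes leaves it out. The difference was -1.08 (SE 0.21, 95% interval -1.54 to -0.61, limma adjusted p = 0.0178). It lost the call in 4 of 17 alternative settings, among them without PBS replicate 1 and without PBS replicate 2 (limma adjusted p = 0.0501 and 0.0516). Ccr8, the receptor of Ccl1, had a difference of -0.34 (limma adjusted p = 0.183), and Cxcr3, the receptor of Cxcl10, one of -0.19 (limma adjusted p = 0.254). Ccr6, the receptor of Ccl20, had a difference of 0.25 with a 95% interval from -0.37 to 0.86. Its values were 4.33, 5.21, 4.37 and 5.07 with PBS and 4.15, 5.51, 5.02 and 5.29 with hBD-2, higher on replicates 2 and 4 as the B cell markers were. Ccr1, Ccr3, Xcr1 and the scavenging receptor genes Ackr1 and Ackr2 lay under the percentile 40 and between -0.08 and 0.05.

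In a list of genes that carry or end the signal of chemokine receptors, 4 of 11 measured members fell, none rose and 7 did not pass. Over all genes, 3.66% were called lower and 0.8% higher. Arrb1, an arrestin that ends receptor signalling, went from 8.83 ± 0.02 down to 8.15 ± 0.16, a 1.60-fold fall (limma adjusted p = 0.00354). Rgs1 and Rgs16, which shorten G protein signals, fell 1.55-fold and 1.52-fold (limma adjusted p = 0.00480 and 0.00971). Pik3cg, the kinase that links these receptors to phosphoinositide signalling, fell by 0.58 on the log2 scale (limma adjusted p = 0.00917). All 4 calls were lost without hBD-2 replicates 3 and 4 together, and also without PBS replicate 2 and hBD-2 replicate 4 together. With the called genes counted, arrays of the groups did not overlap for 6 of the 11 members below PBS and for 1 above it. Over all genes, 9.36% lay below and 5.51% above. The 1 above was Dock2, a motility factor, with a difference of 0.25 (limma adjusted p = 0.115). The list's median was -0.18.

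Transcription factor lists showed where the regulators of these ligands stood, against 3.66% of all genes called lower and 0.8% higher. Of 11 measured effector lineage factors 3 fell and none rose, with a list median of -0.23: Prdm1 (log2 difference -1.42, limma adjusted p = 0.00183), which encodes the repressor Blimp-1 of effector cells, Id2 (-0.74, limma adjusted p = 0.00105), an inhibitor of E proteins, and Bhlhe40 (-0.53, limma adjusted p = 0.0442). The call of Bhlhe40 was lost in 11 of 18 alternative settings, 6 of them with a single array left out (any PBS array, or hBD-2 replicate 3 or 4; limma adjusted p up to 0.123), and those of Prdm1 and Id2 in none of the 18. Klf13, known for late Ccl5 transcription in T cells, had a difference of 0.19 (limma adjusted p = 0.218), and Tbx21 and Eomes, factors of Th1 and cytotoxic cells, both -0.23 (limma adjusted p = 0.230 and 0.240). Of 18 measured activation-induced factors none fell and Nfkbia, the inhibitor that NF-kB itself induces, rose 1.32-fold (limma adjusted p = 0.0266). Leaving out 1 array ended that call for 5 of the 8 arrays, PBS replicates 1, 2 and 4 and hBD-2 replicates 3 and 4 (limma adjusted p up to 0.0842). Nfatc2 (-0.33), Irf4 (-0.52) and Fosl2 (-0.43) were not past the threshold, nor were Rel (0.21), Rela (0.20) and Jun (0.30). That list's median was 0.04.

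Cytokine and granule genes that effector T cells release with these chemokines fell in 6 of 19 members, 1 rose and 12 did not pass. The list's median was -0.18, and 3.66% of all genes were called lower and 0.8% higher. Besides Ifng, the members that fell were the granzyme genes Gzma, Gzmb and Gzmk, the perforin gene Prf1 and Tnf. Apart from Ifng, their log2 differences ran from -0.59 for Tnf to -1.27 for Gzmk. Gzma went from 6.87 ± 0.30 to 5.82 ± 0.24, which is 2.08-fold lower (limma adjusted p = 0.00451). The call of Tnf was lost in 11 of 18 alternative settings, with single arrays left out for PBS replicates 1, 2 and 4 and hBD-2 replicates 2, 3 and 4 (limma adjusted p up to 0.117). Gzmb lost its call without hBD-2 replicates 3 and 4 together, and without PBS replicate 2 and hBD-2 replicate 4 together. Il9, a Th2 and Th9 cytokine at percentile 19.8 of mean level, was the member that rose, by 0.51 (limma adjusted p = 0.0376), a call lost in 11 of 17 settings, among them without any 1 PBS array or hBD-2 replicate 3 or 4 (limma adjusted p up to 0.109). Among 8 genes that store or process chemokines, Mmp12, a metalloproteinase that can cut several chemokines, rose 2.21-fold (limma adjusted p = 0.0117). It was not called without hBD-2 replicates 3 and 4, or without PBS replicate 2 and hBD-2 replicate 4. Srgn, the proteoglycan that packs chemokines and granzymes into granules, and Dpp4, a protease that trims chemokine ends, had differences of -0.10 and -0.02 (limma adjusted p = 0.587 and 0.922).

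A list of 28 other mouse chemokine ligands held no limma call in either direction and had a median of 0.09. At an unadjusted limma p under 0.05, 1 was lower and 5 were higher (12.8% and 9.44% of all genes). The list held 1 call with the replicate block, with a variance trend and robust estimation, and without hBD-2 replicate 1. Of the 28, 14 lay under the percentile 40 of mean level. The lower one was Cxcl9. Ccl12, Ccl6, Ccl28 and Cxcl16, with differences of 0.44, 0.42, 0.31 and 0.37, had the smallest p (limma adjusted p = 0.0987 to 0.176). Ccl6 is the chromosomal neighbour of Ccl9 and Ccl3, and its values were 5.71, 6.25, 6.21 and 5.94 with PBS and 6.08, 6.32, 6.71 and 6.66 with hBD-2. On hBD-2 replicates 2, 3 and 4 Ccl6 lay above every PBS array, and replicate 1 lay in the PBS range. In the neighbourhood on chromosome 11, Ccl5, Ccl9, Ccl6, Ccl3 and Ccl4 follow one another in the reference order of protein-coding genes, and their differences were -0.95, 0.31, 0.42, -1.40 and -0.22.

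**Figure D4:**
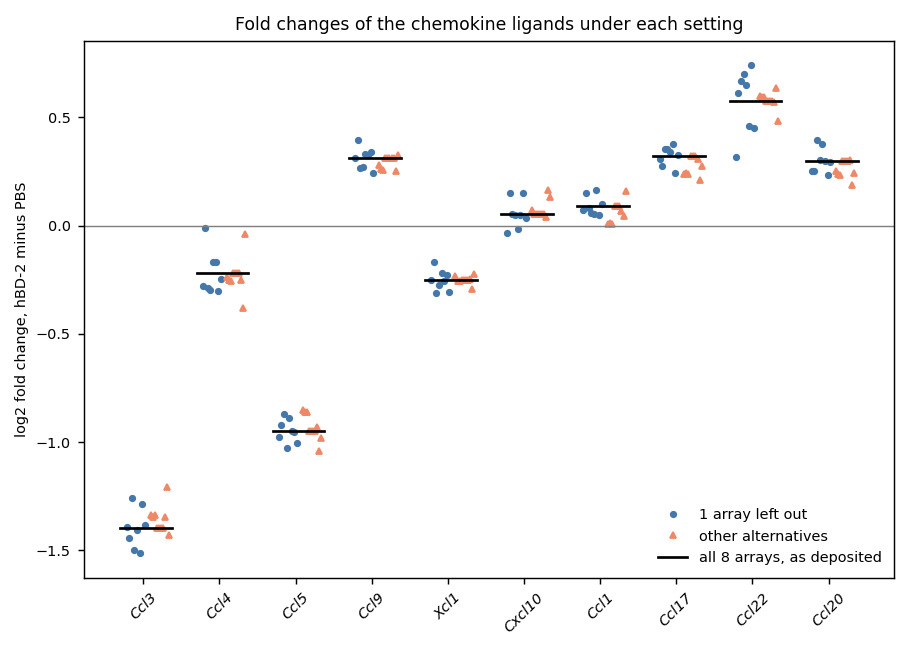
Log2 difference of each ligand (hBD-2 minus PBS) with all 8 arrays (black line), with 1 array left out (blue points) and under the other alternatives (orange triangles). Ccl3 stays between -1.51 and -1.21 and Ccl5 between -1.04 and -0.85, while Cxcl10 lies on both sides of 0 and Ccl4 comes to -0.01 without 1 PBS array.

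The calls of Ccl3 and Ccl5 were kept in all 18 alternative settings, with limma adjusted p up to 0.0316 and 0.0182. None of the other 8 ligands passed under any of them. Ccl9, Ccl17, Ccl20 and Ccl22 kept a difference above 0, and Ccl4 and Xcl1 one below 0, in each setting in which they were tested.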

How the data were processed

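Total RNA of 8 T cell samples was measured on Affymetrix whole-transcript arrays. The authors deposited log2 values for 22203 probe sets, made with oligo and RMA per the submitters' processing notes. The version and settings of each, and the genome build, were not given in the sources used here. RMA aligns the arrays and pulls dim signals towards a floor, which understates the fold of dim genes. The number of arrays limits the precision.

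Exactly 1 symbol was listed for 19572 probe sets, and 2631 stayed unnamed. Where a gene had more than 1 probe set (55 genes), the brightest on average was kept, giving 19505 genes. Groups were compared in R 4.3.3 by lmFit and eBayes of limma 3.58.1 without a block. Two-sided p-values were adjusted by Benjamini-Hochberg across the 19505 genes. On simulated data for hBD-2 against PBS (19505 genes, 50 seeded per fold), the fit recovered 10% of genes changed 1.25-fold and 68% of those changed 1.5-fold; for 2-fold it was 96%, and for 3-fold 100%.

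The ligands and gene lists were chosen with earlier results of these data known. Named genes are all ligands, each measured receptor, and from other lists the called members or up to 4 with the smallest p; Klf13, Tbx21, Eomes, Rel, Rela, Srgn, Dpp4, Dock2, Cxcl9, Cxcl11 and the natural killer and T cell markers named lie outside that rule and were picked after their values were seen. Alternatives were 3 normalizations, a replicate block, a variance trend, a dim-gene filter, separate probe sets, array weights and arrays left out. Same-numbered arrays had correlated deviations of 0.181, 0.0585, 0.159 and 0.00482 over 19505 genes. Some items are not reported here.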

Additional observations from a re-analysis of the deposited data

Results flagged for a closer look

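Single arrays stood far from the others of their group for 2 of the 20 sets of 4 values tested (10 ligands in 2 groups), and chance alone marks about 1 in 20 such sets. Ccl4 was at 6.33 on PBS replicate 2, against 5.53 on the next highest PBS array. Ccl9 was at 5.72 on hBD-2 replicate 4, against 5.46 on the next highest hBD-2 array. Without both arrays together, an alternative chosen after seeing the data, the difference of Ccl4 was -0.04 and that of Ccl9 0.33, and Ccl3 and Ccl5 kept their calls.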

How the results depend on the processing

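The ligands kept their side of the threshold in all settings run, and those of Ccl1 and Ccl17 were run in 17 of 18, since the filter on dim genes leaves them out. Cxcl10 was the ligand whose sign turned: it was at -0.033 without PBS replicate 1 and -0.015 without hBD-2 replicate 1, and its range with 1 array left out was -0.033 to 0.151. The cause was not tested. The count of genes called, 869 (713 lower, 156 higher), ranged from 312 to 1396 with 1 array left out (279 to 1074 lower, 33 to 322 higher), and it moved by over 1.5 times without PBS replicate 1, 2 or 4 or hBD-2 replicate 1, 3 or 4. It was 2033 (1554 lower, 479 higher) with a variance trend and robust estimation, 1541 (1192 and 349) without dim genes, 128 (112 and 16) without hBD-2 replicates 3 and 4, and 131 (118 and 13) without PBS replicate 2 and hBD-2 replicate 4; the last 2 have fewer arrays. The labels do not say that a replicate number marks a mouse, and the check on deviations did not pair all numbers, so the tests are unpaired. With the replicate number as a block, Ccl3 and Ccl5 stood at -1.40 and -0.95 (limma adjusted p = 0.00656 and 0.00575), no ligand gained or lost a call, Ccl12 was called among other chemokine ligands (limma adjusted p = 0.0396), and the number of genes called stayed within 1.5 times. Numbers 1 and 3 correlated best with their own number and 2 and 4 did not, while B cell markers were high on numbers 2 and 4 in both groups. This is a hint of pairing from the data, not from the design. Each ligand has 1 probe set, so no second probe set could be tried. Ccl1 and Ccl17 lie near the floor, which limits what could be seen.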
